A study of Homo sapiens with 18 samples.

Results

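The response of the FaDu cell line to hepatocyte growth factor (HGF) was examined by mRNA sequencing. FaDu is an established line of head and neck squamous cell carcinoma (HNSCC) from a primary tumor of the hypopharynx. The comparison comprised 6 of the 18 libraries of the series, 3 of untreated control cells and 3 of cells given 50 ng/mL HGF, and libraries with the same replicate number were taken as a pair. The other 12 libraries hold the HNSCC lines Detroit 562 and SCC-9 under the same 2 conditions. Treatment lasted 16 h by the sample records and 48 h by the series record. FaDu cells of both groups were obtained from ATCC, grown in MEM-α, and they represent 1 line without stroma. The p-values below measure only the spread between repeats of the experiment. The model estimated this spread from all 18 libraries, thus also from Detroit 562 and SCC-9. Of 19901 genes in the count table, 15475 had enough reads in the series to be tested, and all of these were tested in FaDu.

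HGF is a secreted growth factor of mesenchymal cells that binds the receptor tyrosine kinase MET on epithelial cells. Activated MET recruits adaptors such as GAB1 and GRB2 and passes the signal to the RAS-ERK and PI3K-AKT cascades, and in epithelia it is known for scattering, motility and invasive growth. The ERK cascade induces its own inhibitors, among them Sprouty proteins and dual-specificity phosphatases, so the mRNAs of these inhibitors are commonly read as a record of ERK activity.

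Total counts on genes were between 39410093 and 42431562 in the FaDu control libraries and between 39668986 and 44003970 in the HGF libraries. The squamous epithelial markers fitted the label. The 9 of 9 tested markers summed to between 332400 and 479700 normalized counts per control library and to between 227200 and 425700 per HGF library. Of the fibroblast markers 4 of 8 were tested, with sums of 168.5 to 269.4 and 144.5 to 186.5, and LUM was at 0 in all 6 libraries. Of the leukocyte markers 3 of 8 were tested, mostly CD68 and CD14, with sums of 868.2 to 1374 and 1379 to 1591, while PTPRC, the pan-leukocyte antigen, had at most 3 counts in any library. CD68, a lysosomal protein not limited to leukocytes, rose by 0.51 as the only leukocyte marker called, and the other 2 tested had negative values. COL1A1 fell by 0.59 as the only fibroblast marker called, and of the other 3 tested, 2 had positive values and 1 a negative value. The part of such genes in the results was not tested. Of the endothelial markers 5 of 6 were tested, with sums of 191.1 to 403.8 and 155.2 to 305.5, and KDR was at 0 in all 6. Among these VWF and CDH5 fell by 1.32 and 0.86, and ERG rose by 0.61. In such bulk libraries fewer cells that express a gene and less RNA per cell cannot be told apart.

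The 3 pairs started from different states. Among genes with a mean of at least 50 normalized counts, control library 3 was the highest of the 3 controls for 199 of the 263 genes that HGF raised, against 38.5% of the genes without a call. It was the lowest of the 3 for 379 of the 421 genes that HGF lowered, against 35.4% of the genes without a call. Control library 3 therefore lay on the side of the HGF libraries, and its level reached that of HGF library 1 or 2 in 57.4% of the raised and in 69.1% of the lowered genes. Control library 1 or 2 reached it in 21.3% and 13.5%. These are not like values, because HGF libraries 1 and 2 are the partners of controls 1 and 2, and the genes were called for differences within pairs. Within its own pair HGF moved these genes further in the same direction, which the calls themselves favor. HGF library 3 was the highest of the 3 HGF libraries for 223 of the 263 raised genes and the lowest for 347 of the 421 lowered genes. What set pair 3 apart was not tested.

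HGF changed the expression of 867 genes in FaDu, of which 310 rose and 557 fell. Calls required a Benjamini-Hochberg adjusted p under 0.1 in edgeR's quasi-likelihood test together with a change of 0.4 or more on the log2 scale, up or down, and the model compared libraries within pairs. The calls were 5.60% of the genes tested, 2.00% up and 3.60% down, and the median log2 fold change of all genes tested was -0.006. An unadjusted p under 0.05 was found for 26.0% of the genes, and DESeq2 with the same pairs called 4.38%. At an adjusted p under 0.1 and any fold there were 17.4%. The size of the response was moderate, with a median log2 fold change of 0.61 among the raised and of -0.61 among the lowered genes. Only 52 genes rose by a log2 of 1 or more, and 92 fell by as much. All 3 pairs moved the same way for 839 of the 867 genes, whereas the raw groups of 3 control and 3 HGF libraries did not overlap for 290 of them, compared with 9.41% of all genes tested. This overlap mattered for the test. Without the block for the pairs, 4 genes (0.0258% of those tested) were called, namely DUSP6, IER3, GJB2 and ITGB5, all of them raised. Without pair 1 the blocked model called 454 genes, without pair 2 it called 1059 and without pair 3 it called 767, and 408, 722 and 596 of these were among the 867. The plot of fold change against expression level shows where the calls lay.

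**Figure D1:**
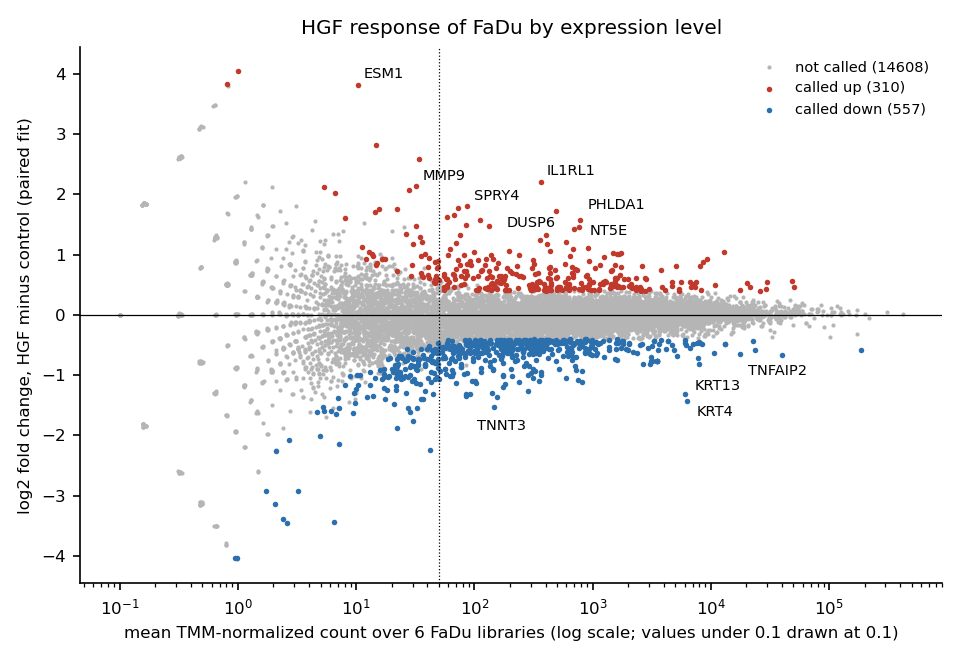
Fitted log2 fold change (HGF minus control, paired fit) of the 15475 genes tested in FaDu against their mean TMM-normalized count over the 6 libraries on a log axis. Raised genes (310, red) and lowered genes (557, blue) lie at all levels, and the dotted line marks the 50 counts used to choose the genes with the largest changes; below it, 47 genes were called up and 136 down.

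Among the 15 largest rises were 3 receptor genes of the interleukin-1 family. IL1RL1, the receptor of IL-33 (chromosome 2, 102311502 to 102352037, GRCh38), stood at 65.7, 112 and 215 normalized counts in control libraries 1 to 3 and at 615, 399 and 771 in HGF libraries 1 to 3. The groups did not overlap, and the fitted log2 fold change was 2.21 ± 0.26 (adjusted p = 0.000144). Here and below ± gives the standard error (SE) from the model of all 18 libraries. It is not the spread over the 3 FaDu pairs, whose log2 ratios for IL1RL1 were 3.22, 1.83 and 1.84. IL18R1, a subunit of the IL-18 receptor, shares nearly all of this extent on the same strand, so its log2 fold change of 1.73 ± 0.16 partly counted the same reads. The counts of IL18R1 beyond those of IL1RL1 were 76, 93 and 140 in the controls and 161, 103 and 234 with HGF, which is an increase in every pair although HGF library 2 lay below control library 3. IL1R2, the decoy receptor of IL-1 on the same chromosome (101991844 to 102028544), had 19.0, 23.2 and 43.3 normalized counts in the controls and 87.4, 52.4 and 125 with HGF. Its groups did not overlap, and it rose by 1.63 ± 0.23 on the log2 scale (adjusted p = 0.000402). Their neighbors IL1R1 and IL1RL2, looked up after these values were seen, had log2 fold changes of 0.51 ± 0.40 and 0.27 ± 0.10 and were not called.

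Of 20 tested feedback inhibitors and other targets of ERK 11 rose and none fell, with a median log2 fold change of 0.57. Here and for each list below, the counts stand beside 2.00% of all genes tested called up and 3.60% called down. DUSP6, the phosphatase that dephosphorylates ERK in the cytoplasm (chromosome 12, 89347232 to 89353271), had 306, 366 and 444 normalized counts in control libraries 1 to 3 and 909, 744 and 1380 in HGF libraries 1 to 3. Every HGF library exceeded every control, and DUSP6 rose by 1.42 ± 0.10 (adjusted p = 6.86e-06). It was also the gene with the clearest call when the pairs were ignored, with an adjusted p of 0.0115. SPRY4, a Sprouty inhibitor of receptor tyrosine kinase signaling, rose from 28.6, 34.2 and 53.7 to 117, 80.7 and 211 normalized counts without overlap of the groups, a log2 fold change of 1.80 ± 0.23 (adjusted p = 0.000256). PHLDA1, a pleckstrin homology-like protein induced by growth factors, rose from 199, 450 and 536 to 840, 954 and 1690 normalized counts, again without overlap (1.58 ± 0.16, adjusted p = 4.53e-05). The immediate early gene IER3 rose from 514, 537 and 676 to 1261, 972 and 1505 normalized counts (1.11 ± 0.09, adjusted p = 1.37e-05). The nuclear ERK phosphatase DUSP4 rose 2.24-fold, the ETS factors ETV4 and ETV5 gained 0.84 and 0.73, and TRIB1, EPHA4, SPRY2 and DUSP7 gained 0.54 to 0.65. DUSP5, another nuclear ERK phosphatase, had a log2 fold change of -0.01 ± 0.12 without a call, and SPRED1 and SPRED2 reached 0.38 and 0.36 without passing the fold threshold.

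The receptor itself and its direct partners changed little. HGF mRNA was not detected, with 0 counts in all 6 libraries. MET (chromosome 7, 116672390 to 116798386) had 5794, 5571 and 6459 normalized counts in the controls and 6154, 6227 and 7885 with HGF, so the groups overlapped and the log2 fold change was 0.18 ± 0.05 (adjusted p = 0.0384), below the fold threshold. Of 17 tested members of the HGF and MET list only TMPRSS13, a membrane serine protease that can activate pro-HGF, was called, where 5.60% of all genes tested were. Its log2 fold change was -0.65 ± 0.14 (adjusted p = 0.00689). This call was lost without pair 1. The HGF activator matriptase (ST14) and its inhibitors SPINT1 and SPINT2 had log2 fold changes of -0.14, -0.06 and -0.07. The adaptor GAB1 reached -0.34 ± 0.11 and CBL, the ubiquitin ligase that targets MET for degradation, 0.28 ± 0.06.

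Immediate early and AP-1 genes did not move as a group. Of 19 tested members 2 rose, 2 fell, and the median log2 fold change was 0. FOSL1, the FOS family member FRA-1, rose from 4589, 4967 and 8228 to 9679, 7614 and 13690 normalized counts. HGF library 2 stayed below control library 3, but each pair rose, and the log2 fold change was 0.81 ± 0.14 (adjusted p = 0.0021). The small MAF protein MAFF rose by 0.46, whereas JUND and JDP2, a repressor of AP-1, fell by 0.46 and 0.47. JDP2 went from 2059, 1986 and 1390 to 1171, 1748 and 1040 normalized counts with overlap of the groups, and without pair 1 its log2 fold change was -0.30 and JUND and JDP2 were no longer called.

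**Figure D2:**
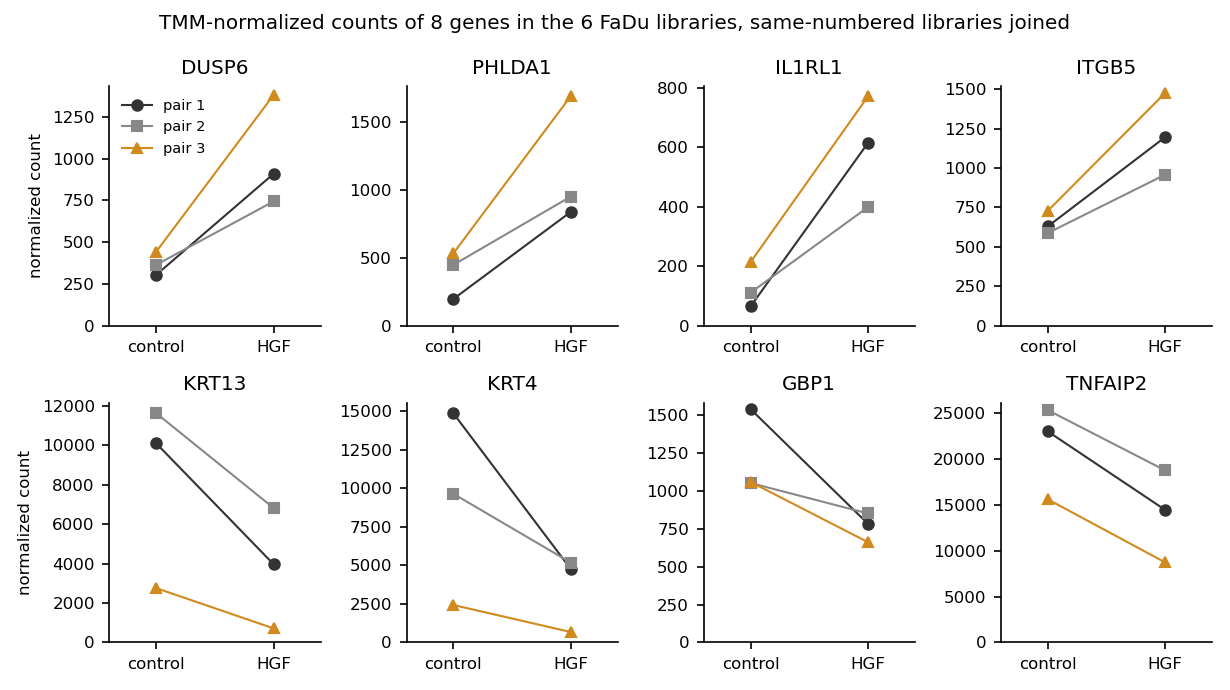
TMM-normalized counts (linear axis from 0) of 8 genes in the 3 control and 3 HGF libraries of FaDu, with libraries of the same number joined by a line. DUSP6, PHLDA1, IL1RL1 and ITGB5 rose and KRT13, KRT4, GBP1 and TNFAIP2 fell in each pair, and for KRT13, KRT4 and TNFAIP2 control library 3 lay at or below the level of HGF library 1 or 2.

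In the EGF family, which was taken with its ERBB receptors, 5 of 16 tested members rose and none fell, and all 5 are ligands. NRG1, the neuregulin that binds ERBB3 and ERBB4, rose from 953, 908 and 1423 to 1752, 1496 and 2199 normalized counts without overlap (0.74 ± 0.08, adjusted p = 6.46e-05). HBEGF, AREG, TGFA and EREG followed with log2 fold changes of 0.65, 0.62, 0.55 and 0.51. Other ligands had negative values without a call, namely NRG4 at -0.39 (adjusted p = 0.014), BTC at -0.35, EGF at -0.79 and EPGN at -1.95, the last on at most 2 raw counts per library. The receptors EGFR, ERBB2 and ERBB3 had 0.17, -0.21 and -0.27 without a call, and the median over the family was 0.13.

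Some genes of cell adhesion to the basement membrane rose. LAMA3, a laminin alpha chain, rose from 1462, 2175 and 1903 to 2170, 2769 and 3543 normalized counts. Control library 2 lay marginally above HGF library 1, each pair rose, and the log2 fold change was 0.61 ± 0.09 (adjusted p = 0.00048). The beta chain LAMB3 reached 0.16 ± 0.09 (adjusted p = 0.249) and was not called, and LAMB2 had -0.36 (adjusted p = 0.00889), below the fold threshold. Of 12 laminin genes tested, 2 rose. Among the integrins, the receptors of such matrix proteins, 4 of 21 genes tested rose and none fell. ITGB5 rose from 630, 588 and 729 to 1195, 958 and 1475 normalized counts (0.89 ± 0.08, adjusted p = 2.98e-05). The collagen receptor chain ITGA2 gained 0.83, and the laminin receptor chains ITGA6 and ITGA3 gained 0.54 and 0.46. Their beta partners ITGB4 and ITGB1 had smaller log2 fold changes of 0.32 ± 0.06 and 0.30 ± 0.04 that were below the fold threshold, and ITGAV had -0.24 ± 0.06. Of 12 connexin genes tested, which encode gap junction channels, 3 rose. GJB2 went from 141, 188 and 148 to 304, 281 and 359 normalized counts without overlap (0.99 ± 0.11, adjusted p = 8.38e-05), and GJB5 gained 0.43. Without pair 1 only 1 connexin was called.

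In the list of pericellular proteolysis 9 of 25 tested genes rose and 3 fell. The urokinase receptor PLAUR rose from 128, 181 and 270 to 229, 225 and 460 normalized counts with overlap of the groups (0.65 ± 0.12, adjusted p = 0.00236). The proteases ADAM8 and ADAMTS1 gained 1.03 and 1.06. The collagenase MMP1 rose by 0.63, whereas the collagenase MMP13 fell by 0.66, from 1176, 2034 and 665 to 833, 1467 and 297 normalized counts. The plasminogen activator PLAT and the matrilysin MMP7 fell by 0.48 and 0.46. MMP9, a gelatinase, had the largest fitted log2 fold change of the list, 2.14 ± 0.27, on few reads: 14, 7 and 15 raw counts in the controls and 54, 12 and 99 with HGF, so that HGF library 2 lay below controls 1 and 3.

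Secreted factors of blood vessels were raised in 4 of 15 genes tested. VEGFC, the lymphatic vessel growth factor, rose from 156, 166 and 806 to 548, 334 and 1562 normalized counts. Control library 3 exceeded HGF libraries 1 and 2, yet each pair rose, and the log2 fold change was 1.21 ± 0.13 (adjusted p = 6.74e-05). VEGFA rose by 0.59 and ANGPTL4, an inhibitor of lipoprotein lipase, by 1.33. ESM1 had 0, 0 and 4 raw counts in the controls and 9, 2 and 49 with HGF, and its fold change depends on so few reads that no size is given. NT5E, which encodes the ectoenzyme CD73 (chromosome 6, 85449584 to 85495791), showed how far pairs and groups could differ. It had 237, 177 and 808 normalized counts in control libraries 1 to 3 and 733, 415 and 2238 in HGF libraries 1 to 3, so the groups overlapped, but the ratios in the pairs were close and NT5E rose by 1.46 ± 0.09 (adjusted p = 1.88e-06). In the list of YAP targets NT5E, DLC1, the tissue factor gene F3 and the receptor tyrosine kinase AXL rose, 4 of 15 genes tested, with a median of 0.20.

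Cytokines and NF-kB targets went in both directions, with 5 of 35 genes raised and 5 lowered. The neutrophil chemokine CXCL8 (chromosome 4, 73740506 to 73743716) rose from 256, 419 and 185 to 587, 708 and 462 normalized counts without overlap (1.06 ± 0.11, adjusted p = 6.74e-05). IL11 gained 1.01, TNFAIP3 0.62, IL1A 0.47 and CXCL1 0.44. TNFAIP2, a protein of membrane protrusions, fell from 23020, 25340 and 15610 to 14460, 18770 and 8734 normalized counts (-0.65 ± 0.07, adjusted p = 7.19e-05). Each pair fell, but HGF library 2 lay above control library 3. The complement factor CFB, the IL-1 receptor antagonist IL1RN and the lipocalin LCN2 fell by 0.56, 0.53 and 0.45. CXCL10 was called down on 2, 3 and 9 against 0, 0 and 3 raw counts. Without pair 3, 2 of the 5 lowered genes were called, and without pair 1, 3 raised genes were called.

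**Figure D3:**
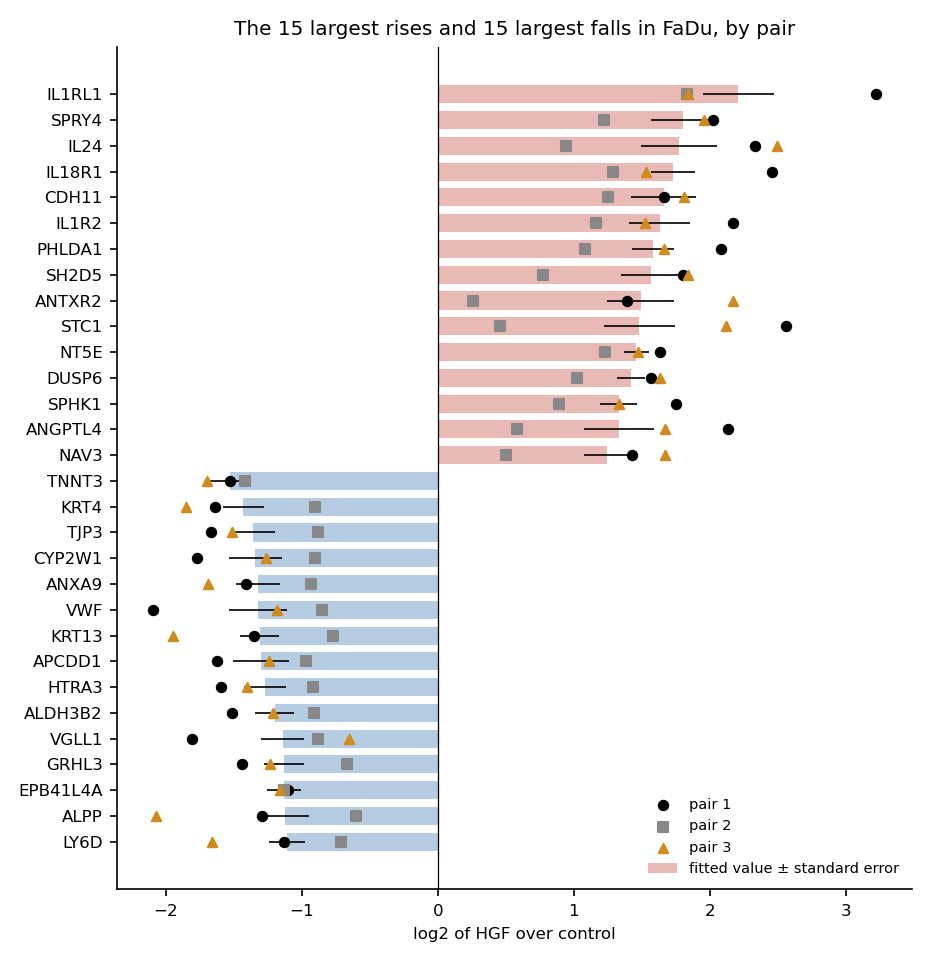
The 15 largest rises and 15 largest falls in FaDu among genes with a mean of at least 50 normalized counts that moved the same way in all pairs. Bars give the fitted log2 fold change with its standard error and symbols the log2 ratio of HGF over control in each pair; pair 2 (grey squares) had the smallest change for 15 of the 15 rises and for 13 of the 15 falls.

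Pair 2 responded least among the 30 genes with the largest changes, as the plot by pair shows. The median log2 ratios of the 15 rises were 2.02 in pair 1, 1.02 in pair 2 and 1.67 in pair 3, and those of the 15 falls were -1.53, -0.90 and -1.40. Over 12523 genes with a mean of at least 50 counts, the SD of the log2 ratios was 0.288, 0.206 and 0.261 in the 3 pairs. Among the rises not yet named, IL24, a cytokine of the IL-10 family, gained 1.77, the mesenchymal cadherin CDH11 1.66, SH2D5 1.57 and the anthrax toxin receptor ANTXR2 1.49. The glycoprotein hormone STC1 gained 1.48, the sphingosine kinase SPHK1 1.33 and NAV3 1.24. Leaving out pair 3 reduced the value of ANTXR2 to 0.88, and leaving out pair 2 raised that of STC1 to 2.31. The 30 genes remained called when any pair was left out, but in the fit without the block their adjusted p ranged from 0.0115 for DUSP6 to 0.641 for KRT13 and 1 of them was called.

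The largest falls included keratins and regulators of squamous differentiation. KRT13, a keratin of the non-cornified mucosa (chromosome 17, 41500981 to 41505705), had 10090, 11620 and 2751 normalized counts in control libraries 1 to 3 and 3965, 6814 and 712 in HGF libraries 1 to 3. Its partner KRT4 (chromosome 12, 52806549 to 52814551) had 14840, 9629 and 2423 in the controls and 4757, 5174 and 673 with HGF. For both genes control library 3 was lower than HGF libraries 1 and 2, while each pair fell, with log2 fold changes of -1.31 ± 0.14 (adjusted p = 7.82e-05) and -1.43 ± 0.15 (adjusted p = 6.35e-05). GRHL3, a transcription factor of epidermal barrier formation, fell from 132, 85.6 and 68.7 to 48.3, 53.4 and 29.1 normalized counts without overlap (-1.13 ± 0.15, adjusted p = 0.000243). Of 34 tested genes of squamous differentiation 10 fell and 1 rose, with a median log2 fold change of -0.35. TGM1, the transglutaminase of the cornified envelope, and ZNF750, a differentiation factor, fell by 0.63 and 0.61. KRT16, KRT15 and S100A9 fell by 0.56, 0.55 and 0.60. FLG, the filaggrin gene, was called at -1.05 ± 0.38 (adjusted p = 0.0956). It had 40, 57 and 6 raw counts in the controls and 14, 29 and 6 with HGF, so pair 3 did not fall. The calls of SPRR2D down and SPRR2A up rested on 0 to 5 raw counts per library in paralogs of similar sequence. Among the epithelial markers used to check the label, KRT5 fell by 0.58 from the highest level of any member, whereas TP63, a master factor of squamous cells, reached 0.10 ± 0.05 on the log2 scale (adjusted p = 0.2).

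Other large falls were found in junction, membrane and secreted proteins. TNNT3, a troponin T isoform, fell from 269, 262 and 115 to 93.0, 97.8 and 34.9 normalized counts without overlap (-1.53 ± 0.14, adjusted p = 3.33e-05). TJP3, the tight junction protein ZO-3, fell from 332, 197 and 142 to 104, 107 and 49.5, also without overlap (-1.36 ± 0.17, adjusted p = 0.000155). CYP2W1, ANXA9, the endothelial marker VWF and APCDD1, an inhibitor of Wnt signaling, fell by 1.34, 1.32, 1.32 and 1.30. The serine protease HTRA3 fell by 1.27, VGLL1, a cofactor of TEAD factors, by 1.14, EPB41L4A by 1.13, the placental alkaline phosphatase ALPP by 1.12 and LY6D by 1.11. The value of VGLL1 was -0.75 without pair 1. The largest falls did not overlap between groups in 7 of 15 genes and the largest rises in 10 of 15, against 9.41% of all genes tested. These genes were chosen for large changes with 1 direction in all pairs, which itself favors groups without overlap.

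Of 34 tested genes of detoxification 17 fell and none rose, with a median log2 fold change of -0.57. The aldehyde dehydrogenase ALDH3B2 fell from 290, 321 and 115 to 101, 170 and 49.5 normalized counts (-1.20 ± 0.15, adjusted p = 0.00016), and ALDH3A1, another aldehyde dehydrogenase, from 12650, 11720 and 4340 to 7001, 8734 and 2369 (-0.71 ± 0.14, adjusted p = 0.00443). Control library 3 was again low for both, so that the groups overlapped. The aldo-keto reductases AKR1B10, AKR1C1, AKR1C2 and AKR1C3 fell by 0.92, 0.75, 0.70 and 0.70, where the AKR1C genes are close paralogs that can share reads. EPHX1, GSTM3, GSTM4, CYP1A1 and CYP1B1 fell by 0.46 to 0.72. UGT1A1 and UGT1A6 each fell by 0.77, but their extents overlap with each other and with the rest of the UGT1A cluster on the same strand, so that they count largely the same reads. The same holds for ADH1B and ADH1C, alcohol dehydrogenases that each fell by 1.07. ADH1B had 83.8, 85.6 and 32.9 normalized counts in the controls and 32.5, 44.4 and 19.4 with HGF (± 0.25, adjusted p = 0.0142), and neither gene was called without pair 1. ADH7 had 3, 0 and 0 raw counts in the controls and 0 in the HGF libraries, which gives no measure of change. HMOX1, heme oxygenase 1, fell by 0.97 ± 0.16 as the only called gene of 18 in the stress list, a share near the 5.60% called among all genes tested.

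**Figure D4:**
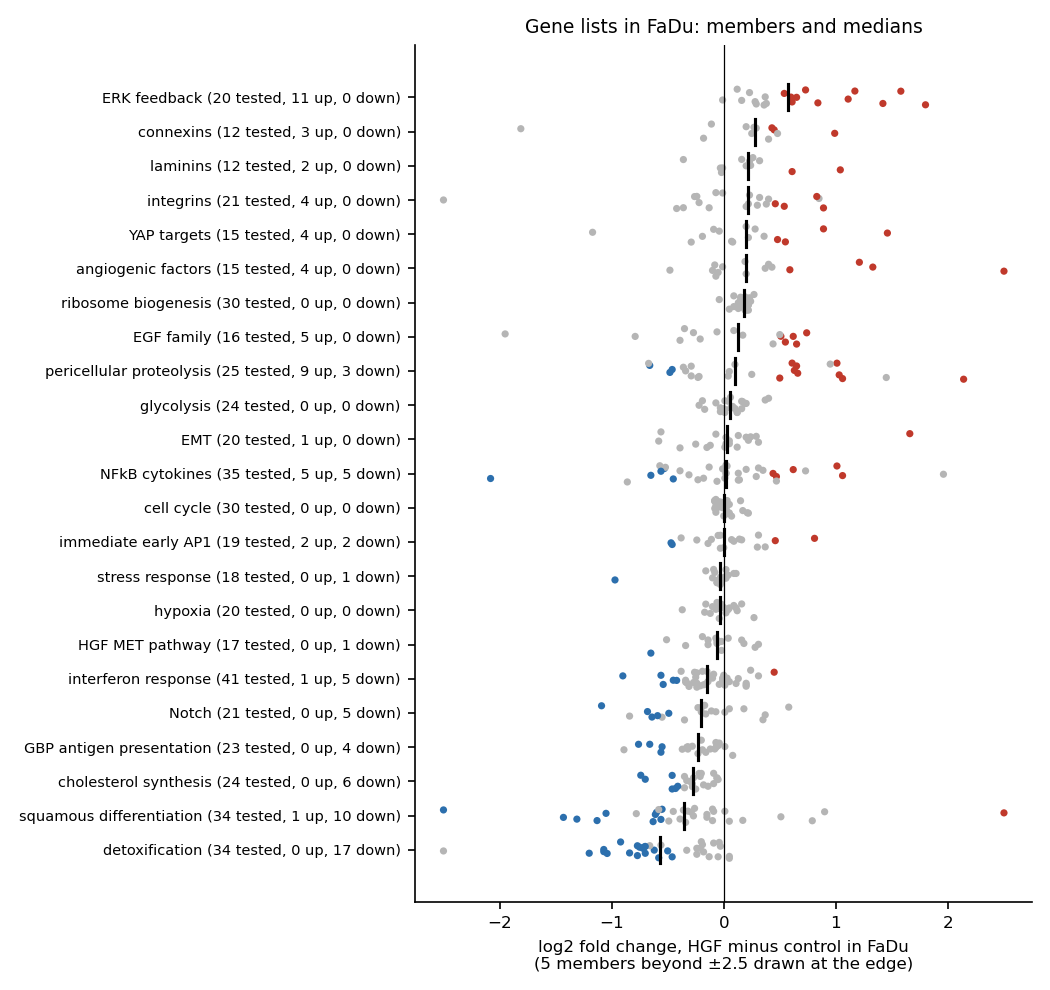
Log2 fold changes (HGF minus control in FaDu) of the tested members of 23 gene lists, 1 point per gene, with the median of each list as a black bar; red points were called up, blue points down and grey points not, and 5 members beyond ±2.5 are drawn at the edge. The ERK feedback list has the highest median (0.57) and the detoxification list the lowest (-0.57), while lists such as cell cycle and hypoxia lie around 0 without a called member.

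All 24 genes tested of sterol synthesis had a negative log2 fold change, with a median of -0.27. An adjusted p below 0.1 was found for 19 of them, against 17.4% of all genes tested, but 6 passed the fold threshold. INSIG1, which retains the sterol sensor SCAP in the endoplasmic reticulum, fell from 2279, 2491 and 945 to 1142, 1781 and 565 normalized counts (-0.74 ± 0.08, adjusted p = 6.34e-05). The enzymes HMGCS1, TM7SF2 and MVK fell by 0.46, 0.46 and 0.41. Without pair 1, 2 of these genes were called.

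Notch genes fell in 5 of 21 tested members and rose in none, with a median of -0.20. The receptors NOTCH3 and NOTCH1 fell by 0.68 and 0.49. NOTCH3 had 7223, 7319 and 4451 normalized counts in the controls and 3880, 5783 and 2550 with HGF (± 0.11, adjusted p = 0.00113), with HGF library 2 above control library 3. HES2, a member of the HES family, fell by 1.09, the target NRARP by 0.59 and the coactivator MAML2 by 0.64. Without pair 1, 3 of the 5 were called.

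Guanylate-binding proteins and antigen presentation genes leaned downward, with 21 of 23 values negative, 4 genes called down and none up. GBP1, an interferon-induced GTPase (chromosome 1, 89052319 to 89065360), fell from 1541, 1053 and 1060 to 784, 852 and 662 normalized counts without overlap (-0.66 ± 0.10, adjusted p = 0.000572). GBP2 fell by 0.76, the immunoproteasome subunit PSMB9 by 0.56 and GBP4 by 0.55, and GBP2 overlaps GBP7 on the same strand. Of 41 other interferon-induced genes 5 fell and 1 rose. XAF1, MX2, IFI44L, SAMD9L and IFI35 fell by 0.42 to 0.90, whereas IFIT2 rose from 1354, 1075 and 3231 to 1935, 1442 and 4280 normalized counts (0.45 ± 0.07, adjusted p = 0.00062). Without pair 1, 1 of the 5 lowered genes was called, and without pair 2, 8 genes of this list were called down.

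In the lists of glycolysis, cell cycle, ribosome biogenesis and hypoxia no gene was called in the paired edgeR model of all libraries. HK2, the hexokinase that phosphorylates glucose on entry (chromosome 2, 74833981 to 74893359), went from 2089, 2893 and 2699 to 2970, 3607 and 3474 normalized counts. Every HGF library exceeded every control, and the log2 fold change of 0.40 ± 0.05 (adjusted p = 0.000241) was marginally below the threshold of 0.4, which it passed in 6 of the other blocked fits and in DESeq2. LDHA, the lactate dehydrogenase A chain, went from 33560, 34280 and 37390 to 43800, 38980 and 38530 normalized counts, also without overlap but with a log2 fold change of 0.20 ± 0.06 (adjusted p = 0.0317). The lactate transporter SLC16A1 (MCT1) and the phosphofructokinase PFKP had 0.16 ± 0.05 (adjusted p = 0.0405) and 0.16 ± 0.06 (adjusted p = 0.12). PFKL, ALDOC and the glucose transporter SLC2A1 had values of -0.19, -0.22 and -0.17. Over all genes tested, 26.0% had an unadjusted p under 0.05 and 17.4% an adjusted p below 0.1, and the counts that follow stand beside these shares. Of the 24 glycolysis genes 10 had an unadjusted p under 0.05, and DESeq2 with the block called 1. Of 30 cell cycle genes 4 had an unadjusted p under 0.05, and of 20 hypoxia genes 4, and DESeq2 called none of either list. Of 30 ribosome biogenesis genes 29 had positive values with a median of 0.18, 25 had an unadjusted p under 0.05 and 20 an adjusted p below 0.1, all under the fold threshold, and DESeq2 again called none.

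Receptors of fibroblast growth factors differed. FGFR3 fell from 4808, 4255 and 2652 to 2509, 2808 and 1411 normalized counts (-0.81 ± 0.07, adjusted p = 2.98e-05), with HGF library 2 above control library 3. FGFR1 was low, between 66.6 and 94.1 in the controls and between 83.7 and 120 with HGF, and its log2 fold change of 0.20 ± 0.16 (adjusted p = 0.458) was not distinguishable from the spread. The ligand FGF2 reached 0.20 ± 0.10 (adjusted p = 0.216). The glycine transporter SLC6A9 fell by 0.56 ± 0.09 (adjusted p = 0.00127). Among 20 genes of epithelial-mesenchymal transition CDH11 was the only one called, where 5.60% of all genes tested were. It went from 22.9, 17.1 and 54.6 to 73.4, 41.3 and 192 normalized counts, with control library 3 above HGF library 2. SNAI2, ZEB1, VIM and CDH2 had log2 fold changes of 0.20, 0.02, -0.58 and 0.24 without a call.

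The promoters of the called genes were searched for 5 short motifs, because AP-1 factors are known effectors of ERK signaling. RefSeq promoter sequences (GRCh38.p14, the 250 bases before each transcription start) were matched by symbol for 226 of 310 raised and 390 of 556 lowered gene symbols, some with several starts. The AP-1 motif TGACTCA, counted on both strands, was present in 39 of 376 promoters of raised genes (10.4%), in 23 of 587 promoters of lowered genes (3.92%) and in 540 of 16774 promoters of all genes tested (3.22%). Of all promoters that RefSeq gives here, 4.17% held it. The windows below show it in 7 raised genes named here or chosen for a range of functions after the calls were known, each with up to 30 bases on either side, read 5′ to 3′ on the strand of the gene. Capitals mark the motif, which reads TGAGTCA where it lies on the opposite strand.
CXCL8 (chr4:73740402-73740468, plus strand): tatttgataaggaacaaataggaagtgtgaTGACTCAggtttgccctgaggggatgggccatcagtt
IL11 (chr19:55370523-55370589, minus strand): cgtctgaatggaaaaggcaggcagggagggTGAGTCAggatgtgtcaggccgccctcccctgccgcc
IL1A (chr2:112784494-112784535, minus strand): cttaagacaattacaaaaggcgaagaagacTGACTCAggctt
LAMA3 (chr18:23872865-23872931, plus strand): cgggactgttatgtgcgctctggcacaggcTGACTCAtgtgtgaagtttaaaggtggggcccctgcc
SPHK1 (chr17:76385177-76385243, plus strand): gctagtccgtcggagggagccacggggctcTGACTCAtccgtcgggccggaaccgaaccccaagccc
S100A2 (chr1:153565860-153565926, minus strand): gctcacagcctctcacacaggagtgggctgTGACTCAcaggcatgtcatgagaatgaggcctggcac
MT2A (chr16:56608450-56608516, plus strand): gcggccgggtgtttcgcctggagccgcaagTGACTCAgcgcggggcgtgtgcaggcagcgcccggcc

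The motif began between 12 bases (IL1A) and 137 bases (CXCL8) before the RefSeq transcription start concerned, and the LAMA3 promoter held a further match outside the window. The SPHK1 and MT2A windows lay inside the extent over which these genes were counted. Which start FaDu used was not tested. In the genes shown the log2 fold changes ranged from 0.47 for IL1A to 1.33 for SPHK1. S100A2, a calcium-binding protein of basal squamous cells, rose from 32310, 37290 and 47960 to 60600, 47020 and 64480 normalized counts (0.56 ± 0.08, adjusted p = 0.000659), and the metallothionein MT2A rose from 3840, 6740 and 7816 to 8414, 9552 and 15360 (0.87 ± 0.09, adjusted p = 7.19e-05). The other motifs gave smaller differences in percentage points. The interferon-stimulated response element was found in 3.19% of raised, 2.39% of lowered and 2.51% of all tested promoters. The NF-kB motif was found in 0.532%, 0% and 0.197%, the cyclic AMP response element TGACGTCA in 1.86%, 0.681% and 2.23%, and the ETS motif ACCGGAAGT in 0%, 0.341% and 1.29%. These are matches of letters within 250 bases, and binding of a factor was not measured.

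The response of FaDu was set beside that of the other lines in the same model. Detroit 562 had 3327 called genes (21.5% of those tested) and SCC-9 had 305 (1.97%). Of the 310 genes raised in FaDu, 177 (57.1%) also rose in Detroit 562, where 7.13% of all genes rose, and these made up 16% of its raised genes. In SCC-9 40 (12.9%) of them rose, where 0.562% of all genes did, and these made up 46% of its raised genes. Of the 557 genes lowered in FaDu, 418 (75%) fell in Detroit 562, against 14.4% of all genes, and 92 (16.5%) fell in SCC-9, against 1.41%. In both other lines 34 of the raised genes rose and 80 of the lowered genes fell. The difference of the responses was tested directly. Among the raised genes FaDu differed from Detroit 562 for 109 (35.2%, against 19.1% of all genes tested), with 64 values higher and 45 lower in FaDu, and from SCC-9 for 75 (24.2%, against 1.32%), all 75 higher in FaDu. Among the lowered genes it differed from Detroit 562 for 168 (30.2%, against 19.1%), of which 134 fell less in FaDu, and from SCC-9 for 40 (7.18%, against 1.32%), of which 39 fell more in FaDu. All these genes were chosen by their call in FaDu, which by itself favors differences with the larger change in FaDu. The shares and directions are therefore a description of the chosen genes.

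**Figure D5:**
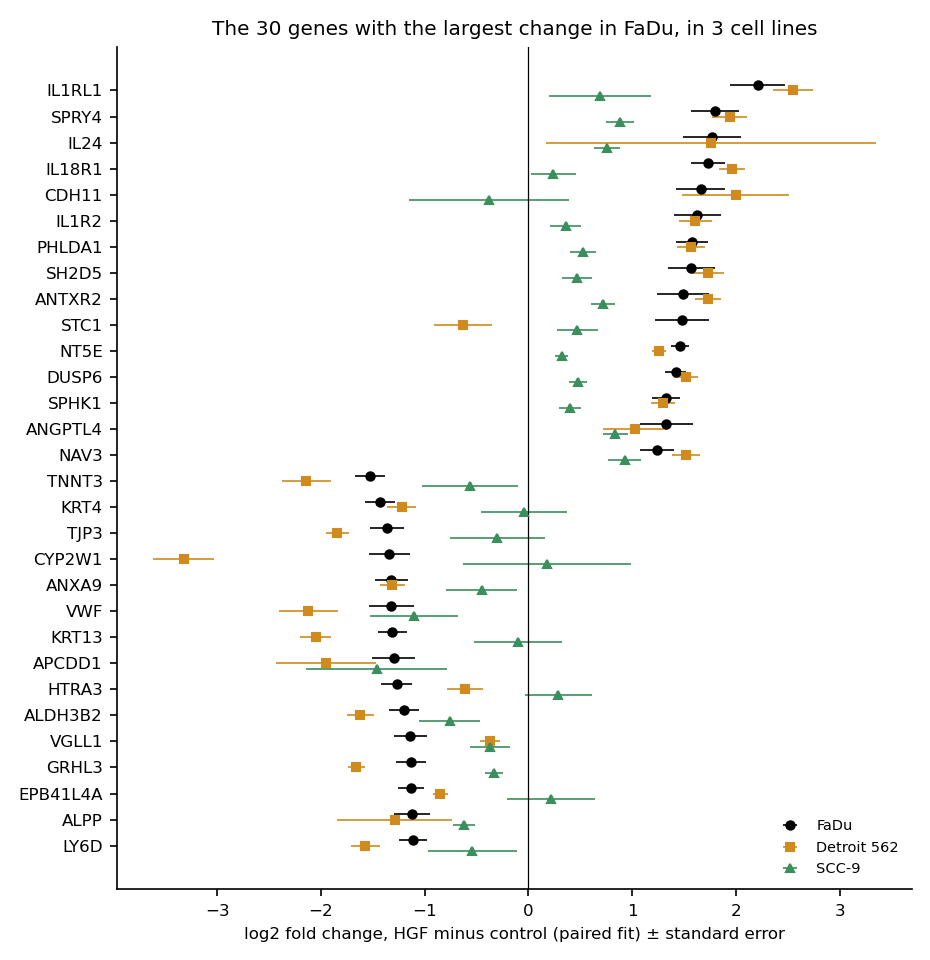
Fitted log2 fold changes (HGF minus control, paired fit) with standard errors of the 30 genes with the largest changes in FaDu, shown for FaDu (black circles), Detroit 562 (orange squares) and SCC-9 (green triangles). Most genes moved in the same direction in FaDu and Detroit 562, STC1 being negative in Detroit 562 (-0.63), and the SCC-9 values lie closer to 0 than those of FaDu for most genes.

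For 28 of the genes called in FaDu the HGF effect was larger in FaDu than in both other lines by the test of the difference (adjusted p below 0.1 for each). The call and the larger change in FaDu were conditions of this choice, so the values describe the chosen genes. Among the 28, AKAP2 and PALM2-AKAP2 overlap on the same strand and can share reads. SFRP1 was called down on 0 to 22 raw counts per library although pair 1 rose. Without the block for the pairs, 0 genes differed from SCC-9. CXCL8 rose by 1.06 in FaDu, against 0.30 in Detroit 562 and -0.26 in SCC-9, and the differences were 0.77 (adjusted p = 0.0053) and 1.32 (adjusted p = 0.00195). GJB2 rose by 0.99, against -0.07 and 0.07, with differences of 1.06 (adjusted p = 0.000355) and 0.92 (adjusted p = 0.0121). IER3, NRG1, EPHA4, IFIT2 and MMP9 were further list members of this kind, and HES2 and HTRA3 fell more in FaDu than in either line. FST, the activin antagonist follistatin, and COL12A1, a fibril-associated collagen, were looked up after these values were seen. FST rose by 1.03, against 0.24 and 0.39, and COL12A1 by 0.81, against -0.05 and 0.09.

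Of the genes called in FaDu, 11 were called in the opposite direction in Detroit 562. STC1 had 25.7, 147 and 48.9 normalized counts in the FaDu controls and 154, 203 and 214 with HGF, a log2 fold change of 1.48 ± 0.26, against -0.63 ± 0.28 in Detroit 562. The difference was 2.11 (adjusted p = 0.00339). CXCL1 rose by 0.44 in FaDu and had -0.69 in Detroit 562 (difference 1.13, adjusted p = 6.44e-05), while its neighbor in the chemokine cluster, CXCL8, was positive in both. SERPINA1, the alpha-1 antitrypsin gene, chosen after its value was seen, rose by 0.65 in FaDu and had -0.46 in Detroit 562 (difference 1.10, adjusted p = 0.000875). FOSL1 rose in FaDu by 0.84 less than in Detroit 562 (adjusted p = 0.0148).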

How the data were processed

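Total RNA of untreated and HGF-treated cells was made into stranded mRNA libraries (TruSeq). The values are raw counts per gene deposited by the authors, who trimmed reads with Cutadapt 1.16, aligned them with STAR 2.5.2b to GRCh38.p12 with GENCODE annotation and counted with bedtools all reads on the strand of a gene's extent, so a read in overlapping genes counts for each. The authors tested them with DESeq2 1.22.1.

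For the present report counts were analysed with edgeR 4.0.16 and limma 3.58.1 in R 4.3.3. Genes were filtered by filterByExpr on the 6 groups and normalized by TMM, and a quasi-likelihood model with a term for each pair (the replicate block) and 1 HGF effect per line was fitted to all 18 libraries (6 residual degrees of freedom). Adjusted p values are Benjamini-Hochberg values over all genes tested from this model. Normalized counts are TMM-scaled to the mean library size. The libraries were paired by number because the comparison was defined so. Their deviations from the group means correlated at 0.634, 0.678 and 0.761 for same-numbered libraries (12523 genes) and at -0.693 to 0.2 for others. Deviations cancel within a group, so positive values for same-numbered libraries bring negative values for others, and the contrast between them is partly arithmetic. DESeq2 1.42.0 and GenomicRanges 1.54.1 were used for alternatives and overlaps. Total counts per library ranged from 35304770 to 44003970, and a few counts per gene give a fold change that depends on the prior count. The fits were tested on simulated data.

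Genes named are the 15 largest rises and 15 largest falls among calls with a mean of at least 50 counts and 1 direction in 3 pairs, members of 23 gene lists and 4 marker lists, and genes that the study names. The comparison and the lists were chosen with earlier results of these data known. The table holds 18 duplicates of pseudoautosomal genes, of which 13 were tested. Some members of these lists are counted but not reported by name here.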

Additional observations from a re-analysis of the deposited data

Results flagged for a closer look

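The HGF effect in FaDu differed from that in another line, by the test of the difference in edgeR's blocked fit (adjusted p below 0.1), for 25 combinations of a gene named by rule and a line. Values are the log2 fold change in FaDu minus that in the other line. Against Detroit 562, genes lowered in both lines had fallen less in FaDu, with differences of 2.24 for ADH1B and 2.21 for ADH1C, which share reads, 1.97 for CYP2W1, 0.74 for KRT13, 0.62 for GBP1, 0.57 for SLC6A9, 0.53 for GRHL3 and 0.37 for FGFR3. HTRA3 and VGLL1 lay lower in FaDu, by -0.66 and -0.77. STC1 lay 2.11 higher in FaDu. Genes of glycolysis and lactate transport lay lower in FaDu, by -0.30 for SLC16A1, -0.29 for PFKP, -0.26 for HK2 and -0.23 for LDHA, and FGFR1 by -1.13. Against SCC-9, raised genes had risen more in FaDu, by 1.49 for IL18R1, 1.27 for IL1R2, 1.14 for NT5E, 1.09 for SH2D5, 1.05 for PHLDA1, 0.95 for DUSP6 and 0.93 for SPHK1. GRHL3 and HTRA3 lay lower in FaDu than in SCC-9, by -0.80 and -1.56. The genes listed against SCC-9 were named for a large change in FaDu, which favors a larger change there. Against Detroit 562, ADH1B, ADH1C, FGFR1, FGFR3, SLC16A1, PFKP, HK2 and LDHA were taken from the study, which reported their change in Detroit 562. That choice favors a smaller change of these genes in FaDu. The adjusted p values ranged from 0.000656 for ADH1B to 0.0922 for SH2D5. Without the block for the pairs the whole table gave 37 such differences from Detroit 562 and 0 from SCC-9.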

How the results depend on the processing

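The replicate block decided the number of calls. With the pairs blocked, 867 genes were called (310 up, 557 down, 111 list members, 30 of the 30 largest changes) and the response differed from Detroit 562 for 2956 and from SCC-9 for 204 genes. With no replicate block the same model called 4 genes, 4 up and 0 down, 4 of them list members and 1 of the 30, with 37 and 0 differences, while 1247 genes had an unadjusted p under 0.05. FaDu libraries alone without the block gave 0 calls of any kind (762 at an unadjusted p under 0.05), and DESeq2 with its fold change prior and no block gave 66 calls, 46 up and 20 down, with 16 list members and 10 of the 30, and 64 of its calls were among the 867. No gene named by rule changed sign under any alternative run, while the median of all genes lay between -0.014 and 0.005. Without a minimum fold change 2697 genes were called (1161 up, 1536 down, 236 list members), and with limits of 0.05 on the adjusted p and 1 on the log2 scale there were 114 (47 up, 67 down, 25 list members). Leaving out each replicate in turn gave 454 to 1059 calls, 227 to 425 up and 227 to 634 down, 83 to 129 list members, 30 of the 30 in each case, and 1833 to 3088 differences from Detroit 562 and 45 to 318 from SCC-9. The share of calls that were down was 64.2% with the block, 50% without replicate 1, 30.3% in DESeq2 with the prior and 0% with no replicate block. The other blocked alternatives gave 678 (DESeq2) to 879 (upper-quartile factors) calls, among them 778 with FaDu libraries alone and, added after seeing the data, 775 among genes that overlap no other gene on their strand. DESeq2 with the block gave no adjusted p for CDH11. Depth limits genes under 50 counts, which were 183 of the 867. With 3 pairs of 1 line no statement extends beyond these cultures.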
